A study of Mus musculus with 8 samples.

Results

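The genes that make, carry and restrain the Wnt signal were followed by the DNA methylation of the regions nearest to them. A member was any 250 bp window, in at least 1 of 4 deposited comparisons, whose centre lay closest to the transcription start site (TSS) of a Wnt, Fzd, Sfrp, Dkk, Dvl, Axin or Rspo gene or of a further listed pathway gene (Porcn, Lrp5, Lrp6, Ror1, Ror2, Ryk, Frzb, Wif1, Kremen1, Kremen2, Lgr4, Lgr5, Znrf3, Rnf43, Apc, Apc2, Gsk3a, Gsk3b, Ctnnb1, Nkd1, Nkd2, Tcf7, Tcf7l1 and Tcf7l2). This rule used position alone and gave 324 of 54235 windows, at 58 of 70 annotated genes. The other 12 genes were nearest to no listed window: Wnt2, Wnt5b, Wnt8a, Wnt16, Fzd6, Ror2, Dkk4, Kremen2, Rspo1, Rspo2, Rspo4 and Lgr4.

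Bisulphite sequencing of captured genomic regions was performed on mouse E14Tg2a embryonic stem cells (ESCs), an established line. Cells received, by transient transfection, either scrambled siRNA (CTR KD) or a mixture of siRNAs against YAP (YAP KD), the co-activator that the Hippo pathway holds back and that binds DNA through TEAD factors. Each was sampled undifferentiated at day 0 (T0) and at day 4 of neuroectodermal differentiation as serum-free embryoid bodies (SFEBs, T4), giving 4 groups of 2 samples, 8 in all. The knockdown was transient, so YAP KD at T4 names the earlier transfection and not the YAP level at that time, and neither that level nor the identity of the cells could be checked from these tables.

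Wnt ligands are lipid-modified secreted proteins that bind Frizzled receptors together with the co-receptors Lrp5 or Lrp6. Binding stalls the complex of Axin, Apc and Gsk3 that marks β-catenin for destruction, and stabilized β-catenin then acts in the nucleus with TCF/LEF factors. In mouse ESCs this pathway is known to sustain self-renewal, largely by lifting repression by Tcf7l1, and its inhibition favours neural fate in early differentiation.

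The sequences of 4 windows are shown because they carried the largest loss, the largest gain and the largest differences between the knockdowns among single-copy member windows. All are the plus strand of mm9 (NCBIM37), 5′ to 3′, with CpG dinucleotides in capitals. Every CpG of the reference is marked, and which of them were read is unknown. The Fzd1 window, chr5:4755876-4756125, lay in the coding exon and held the largest single-copy loss in CTR KD cells. The first Tcf7l2 window, chr19:55804501-55804750, lay upstream of the gene and held the largest gain. The Lrp5 window, chr19:3672501-3672750, was intronic and held the largest difference at T0, the largest loss in YAP KD cells and the largest difference between the changes of the 2 knockdowns. The second Tcf7l2 window, chr19:55843376-55843625, was intronic and held the largest difference at T4. Fzd1 and Lrp5 are transcribed from the minus strand and Tcf7l2 from the plus strand.
Fzd1: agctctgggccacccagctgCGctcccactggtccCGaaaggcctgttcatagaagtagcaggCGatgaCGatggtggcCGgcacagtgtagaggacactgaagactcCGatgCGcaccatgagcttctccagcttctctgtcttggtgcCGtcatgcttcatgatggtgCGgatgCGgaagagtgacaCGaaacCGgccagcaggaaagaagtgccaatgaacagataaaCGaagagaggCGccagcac
Tcf7l2 upstream: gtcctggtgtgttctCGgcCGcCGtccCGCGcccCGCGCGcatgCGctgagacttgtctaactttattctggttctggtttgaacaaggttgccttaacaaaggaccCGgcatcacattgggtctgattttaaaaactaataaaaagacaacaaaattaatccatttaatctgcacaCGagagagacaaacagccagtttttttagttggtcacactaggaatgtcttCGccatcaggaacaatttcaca
Lrp5: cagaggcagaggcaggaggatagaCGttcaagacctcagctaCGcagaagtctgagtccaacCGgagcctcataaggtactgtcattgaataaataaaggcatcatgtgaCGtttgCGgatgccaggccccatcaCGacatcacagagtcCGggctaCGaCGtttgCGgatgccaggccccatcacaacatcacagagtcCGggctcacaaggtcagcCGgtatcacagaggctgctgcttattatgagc
Tcf7l2 intron: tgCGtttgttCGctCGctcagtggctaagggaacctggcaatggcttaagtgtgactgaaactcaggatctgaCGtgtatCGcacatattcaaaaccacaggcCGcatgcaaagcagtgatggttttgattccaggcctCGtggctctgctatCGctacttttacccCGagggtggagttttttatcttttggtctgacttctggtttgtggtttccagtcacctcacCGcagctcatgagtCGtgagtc

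The CpGs were arranged differently in these windows. In the upstream Tcf7l2 window 9 of 12 CpGs fell in the first 50 bases, whereas no stretch of 50 bases held more than 3 of the 11 CpGs in the intronic one. The Lrp5 window contained an exact repeat of 28 bases, starting at positions 109 and 159 counted from its 5′ end, and its densest 50 bases held 5 of 12 CpGs. The Fzd1 window held 14 CpGs, with at most 5 in any 50 bases. Median genome copy number, judged from the 31-mers of each window, was 1 in all 4.

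Each comparison was read through the values that the authors deposited, namely a p-value, a q-value and a methylation difference in percentage points for every window. Differentiation differences were T4 minus T0, and knockdown differences were YAP KD minus CTR KD. A window was a differentially methylated region (DMR) when q was at or below 0.05 and the absolute difference was over 10 points. The standard error (SE) given after ± was derived from the deposited p-value. Neither sample values nor methylation levels nor read depths are in these tables, so the 2 replicates of a group could not be inspected apart and no value below can be set against the spread between them. The median derived SE of the members was 0.705 points in CTR KD and 0.702 points in YAP KD differentiation.

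Few member windows were DMRs in any comparison. In total 10 windows at 6 genes passed: Rnf43, Lrp5, Fzd1, Dkk1, Dkk2 and Tcf7l2. Losses were found at receptors, secreted antagonists and Rnf43, and gains in differentiation at Tcf7l2 alone. No window of the 16 ligand genes or of the 12 cytoplasmic genes with windows passed. DMRs were rare over all windows too, at 3.17% in CTR KD and 3.85% in YAP KD differentiation, against 2.20% and 3.31% of the members.

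Differentiation of CTR KD cells shows what changed near these genes over the 4 days with YAP untouched. Among 273 member windows 3 gained methylation, at 1 gene, where 0.958% of all windows did, and 3 lost it, at 3 genes, where 2.21% of all windows did. These were 1.10% of the members in each direction. With q alone 47 member windows passed, or 17.2%, against 14.3% of all windows, and 33 of the 47 were losses, as were 4458 of the 6661 over all windows. The median member difference was -0.24 points, with a range of -17.4 to 18.1, and the median over all windows was -0.0725.

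In YAP KD cells 242 member windows were listed. Of these 2 gained methylation, or 0.826% against 0.505% of all windows, and 6 lost it, or 2.48% against 3.35% of all windows. The 6 losses lay at 4 genes. With q alone 45 member windows passed, or 18.6% against 16.1% of all windows, and 37 of them were losses, as were 5436 of the 6898 over all windows. The median member difference was -0.42 points, with a range of -23.5 to 12.0, and the median over all windows was -0.168.

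**Figure D1:**
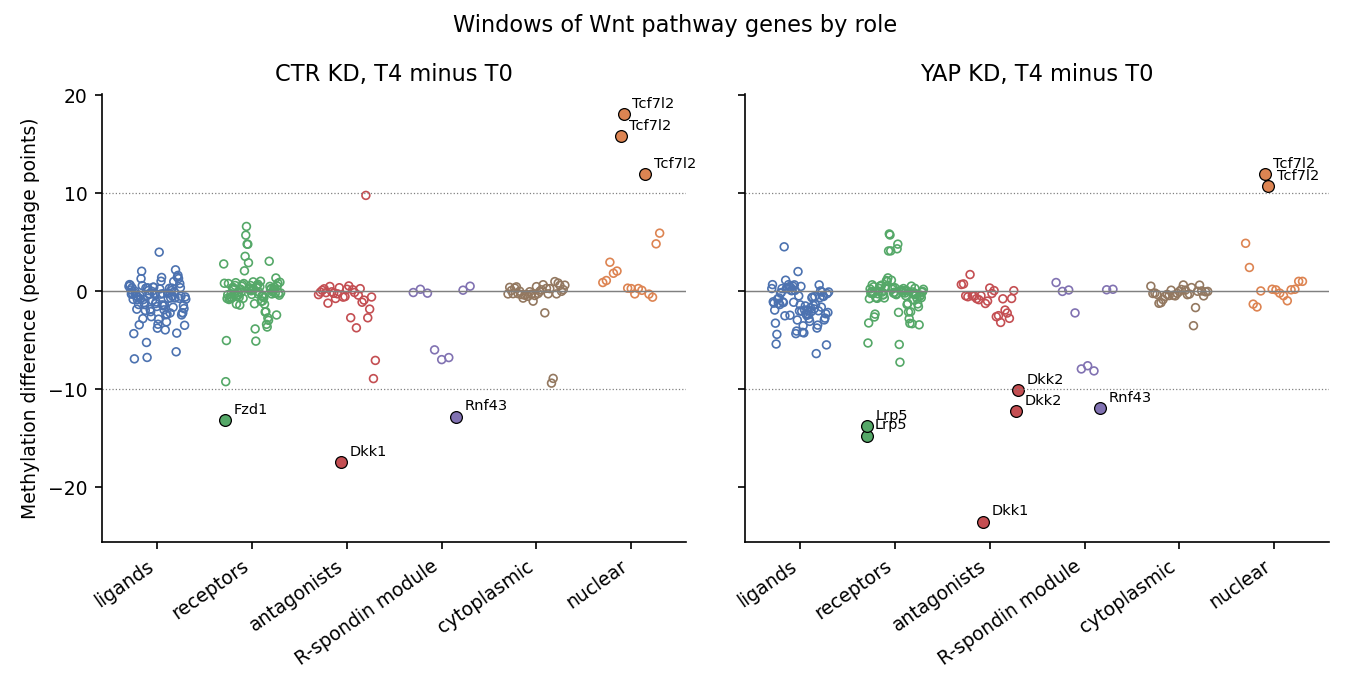
Methylation difference in percentage points (y axis) of every member window, grouped by role (x axis), in CTR KD (left) and YAP KD (right) differentiation; filled points are DMRs and dotted lines mark 10 points. The ligand and cytoplasmic windows lie within 10 points of 0 on both sides, Tcf7l2 windows lie at up to 18.1 points and the Dkk1 window lies at -17.4 and -23.5 points.

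The Wnt ligands held no DMR, and their windows past q alone were mostly losses, as were those of all windows. Of 95 ligand windows in CTR KD differentiation 0 were DMRs, against 3.17% of all windows. With q alone 15 passed, of which 14 were losses and 1 a gain. That is 15.8% of the ligand windows, beside 14.3% of all windows. In YAP KD differentiation 0 of 79 were DMRs, against 3.85% of all windows. With q alone 14 passed, all losses, or 17.7% beside 16.1% of all windows. At an unadjusted methylKit p of 0.05 the ligand windows numbered 27 and 29, and the share of all windows at that p was not counted. The median ligand difference was -0.68 points in CTR KD and -1.23 in YAP KD cells, and the ranges were -6.90 to 4.00 and -6.36 to 4.55. Ligand windows therefore stayed short of 10 points in both knockdowns.

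Wnt5a, a ligand best known for β-catenin-independent signalling, held the largest ligand change of CTR KD differentiation. It lay in a non-coding exon 1.43 kb before an internal start site, at chr14:29322251-29322500, within a stretch shared with the annotated transcript Gm2670. This window changed by -6.90 points ± 1.08 in CTR KD (q 7.74e-09) and by -4.40 in YAP KD cells (q 0.000646). Its overlapping neighbour changed by -4.32 in CTR KD and -5.38 in YAP KD cells. The 2 windows at the first exon of Wnt5a were at 0.632 and 0.141 points in CTR KD cells, neither past q.

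Wnt3, a canonical ligand needed for primitive streak formation, changed by -6.18 points ± 2.27 in a coding exon in CTR KD cells (q 0.0399) and by -6.36 in YAP KD cells, where q was 0.0503. Around its TSS the 3 windows just upstream were at -0.678, 0.0765 and 0.325 points in CTR KD cells. A Wnt10a window at -6.75 points in CTR KD cells (q 0.00632) lay in an intron of the neighbouring ligand gene Wnt6. It was at -2.50 in YAP KD cells, where q was 0.444, and the changes did not pass the test of their difference (adjusted p 0.653 by the z test described below). Wnt1, a ligand of the midbrain-hindbrain boundary, had 3 windows past q alone in each knockdown, the lowest of them at -3.12 points in CTR KD and -3.07 in YAP KD cells. The Porcn windows, at the gene of the acyltransferase that lipidates Wnt proteins, were at 0.509 and 0.689 points in CTR KD cells.

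The Frizzled receptors and their co-receptors had 3 DMR windows, at Fzd1 and Lrp5. DMRs made up 1.16% of the receptor windows in CTR KD and 2.47% in YAP KD differentiation, against 3.17% and 3.85% of all windows. The receptor median was -0.07 points over 86 windows in CTR KD and -0.18 over 81 windows in YAP KD cells. With q alone, 7 receptor windows rose and 8 fell in CTR KD cells, or 17.4% of the receptor windows against 14.3% of all windows. In YAP KD cells 6 rose and 10 fell, or 19.8% against 16.1%. All 7 rises in CTR KD cells and 5 of the 6 in YAP KD cells were overlapping windows of Fzd5.

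Fzd1 encodes a Frizzled receptor in a single coding exon, and its methylation loss grew with distance from the TSS. The window centred 2215 bp after the TSS, shown above, changed by -13.2 points ± 2.74 in CTR KD cells (q 2.82e-05). The windows before it, at 2090 and 1965 bp and each overlapping the next, changed by -9.23 (q 4.65e-05) and -5.03 (q 0.101) in CTR KD cells. Windows at the TSS and at 965 bp were at -0.35 and -0.73 points. The distal part of the coding exon thus lost methylation in CTR KD cells while the promoter did not pass the test.

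The window at 2215 bp was not listed for YAP KD differentiation. Its neighbour at 2090 bp changed by -5.28 points ± 2.04 in YAP KD cells (q 0.0486), and the difference from the CTR KD change did not pass the z test. At T0 the 3 distal windows were at -7.24, -5.29 and -3.51 points, YAP KD against CTR KD, with q of 0.329, 0.347 and 0.635.

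Fzd5, which encodes another Frizzled receptor, held no DMR but the longest run of same-way windows past q alone among the receptors, and was singled out after its values were seen. In CTR KD cells 7 consecutive windows of its coding exon, from 1.82 to 2.57 kb after the TSS, gained methylation by 2.09 to 6.62 points. Each overlaps the next and shares reads with it, so the run is a single stretch and not 7 separate observations. The highest was chr1:64782001-64782250, at 6.62 points ± 1.30 (q 6.74e-06), and the same window was at 5.75 ± 1.42 in YAP KD cells (q 0.000578). In YAP KD cells 5 of these 7 windows passed q alone, at 1.37 to 5.86 points. The 2 nearest to the TSS, at 1.82 and 1.95 kb, were at 0.22 and 1.13 points after YAP KD and at 2.92 and 4.80 after CTR KD, with adjusted p of 0.0965 and 0.0557 for the difference. Fzd1 and Fzd5 therefore moved in opposite directions at about 2 kb from their start sites.

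**Figure D2:**
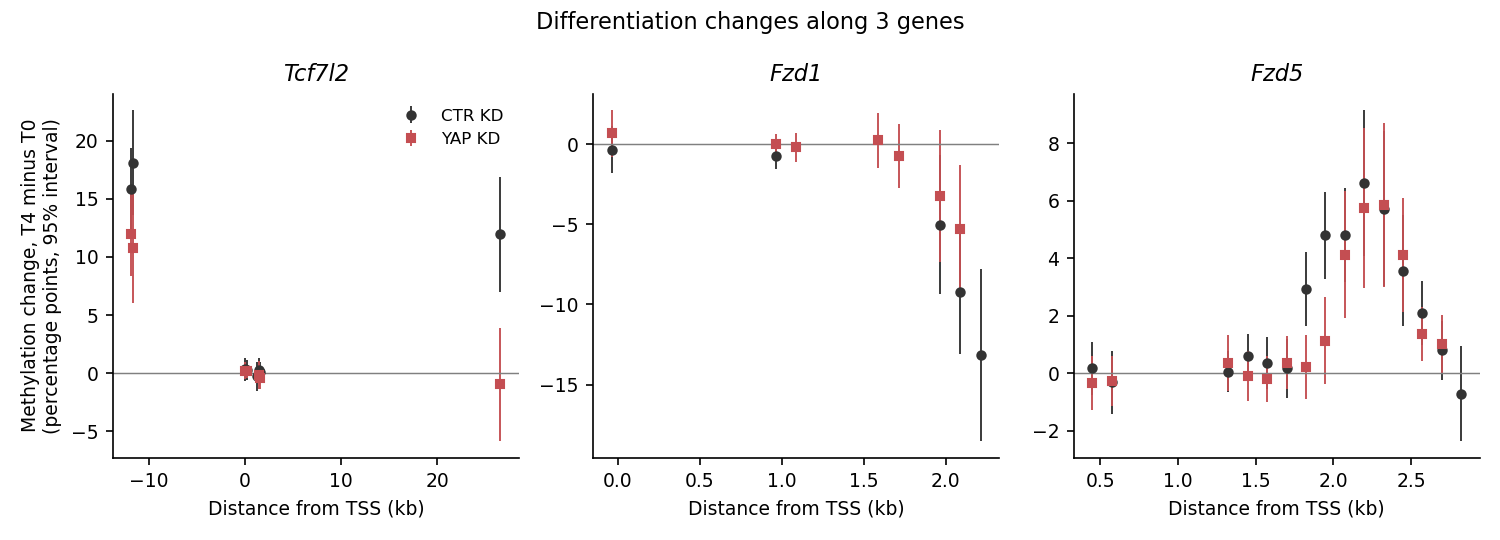
Methylation change from T0 to T4 in percentage points (y axis) against distance from the TSS in kb (x axis) for all listed windows of Tcf7l2, Fzd1 and Fzd5, in CTR KD (black circles) and YAP KD (red squares); bars are 95% intervals from the derived SE and the 3 y axes differ. Changes lie near 0 at the start sites, reach -13.2 points in Fzd1 and 6.62 in Fzd5 past 2 kb, and separate the knockdowns at the Tcf7l2 intron (11.9 against -0.967 points).

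Fzd3, a Frizzled receptor required for axon tract formation in the mouse brain, was the receptor with the largest change short of 10 points in YAP KD cells. Its window 0.451 kb upstream of the TSS changed by -5.09 points ± 1.49 in CTR KD (q 0.00585) and by -7.24 ± 1.65 in YAP KD cells (q 0.000155). Knockdown differences there were 2.37 points at T0 and 0.215 at T4, neither past q. Overlapping Fzd3 windows 57.8 and 57.7 kb from the TSS went the other way in YAP KD cells, at 4.34 (q 0.0279) and 4.82 points (q 0.0656).

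Lrp5, one of the pair of Wnt co-receptors, held the largest difference between the knockdowns in their changes from T0 to T4. Its 2 listed windows overlap and lie in an intron, 13.9 and 13.8 kb after the TSS, and no other window was nearest to the gene. The window chr19:3672501-3672750 changed by 2.80 points ± 2.74 in CTR KD cells (q 0.504) and by -14.7 ± 2.86 in YAP KD cells (q 4.96e-06). At T0 it was 12.2 points ± 2.81 higher in YAP KD than in CTR KD cells (q 0.0108), and at T4 it was at -5.60 ± 2.79 (q 0.397). The T0 difference and the YAP KD loss share the same YAP KD T0 samples, so they are not independent of each other, and the T0 window was no DMR with q at or below 0.01. The overlapping window, chr19:3672626-3672875, was at 0.821 and -13.8 points in CTR KD and YAP KD differentiation, 7.97 at T0 (q 0.176) and -6.69 at T4 (q 0.324). Lrp6, the other co-receptor, had 2 windows within 1 kb of its TSS, between -0.196 and 1.36 points in CTR KD cells.

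The secreted antagonists bind ligands or co-receptors outside the cell, and DMRs among them were losses at 2 Dickkopf genes. DMRs made up 3.23% of 31 antagonist windows in CTR KD and 11.1% of 27 in YAP KD differentiation, against 3.17% and 3.85% of all windows. In YAP KD cells they were the Dkk1 window, in repeated sequence, and an overlapping pair at Dkk2. Dkk1, which blocks Lrp5 and Lrp6 and is itself a textbook target of Wnt signalling, had the largest loss of any member. Its window, chr19:30613751-30614000, lay in intergenic sequence 10.3 kb from the TSS, beyond the 3′ end of the gene. It changed by -17.4 points ± 3.37 in CTR KD (q 5.32e-06) and by -23.5 ± 3.26 in YAP KD cells (q 2.71e-11). At T4 it was at -5.25 points (q 0.478), and it was not listed at T0. This sequence was not unique: the 31-mers of the window occurred a median of 4.5 times in the genome. The part of multiply mapped reads in this value was not tested, and no window at the Dkk1 promoter was listed.

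Dkk2, a Dickkopf that can either block or mildly activate the pathway, lost methylation in its first kilobases. The intronic window chr3:131749876-131750125, 1.75 kb after the TSS, changed by -8.91 points ± 1.78 in CTR KD (q 1.11e-05) and by -12.3 ± 2.14 in YAP KD cells (q 2.70e-07). The next window changed by -7.06 ± 1.88 and -10.1 ± 2.24 points. Only the YAP KD values exceeded 10 points, but the knockdowns differed by -3.34 points ± 2.79 at the first window, with a 95% interval of -8.80 to 2.12, and this did not pass the z test (adjusted p 0.730).

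Sfrp2, a secreted decoy related to the Frizzleds, held the antagonist gain nearest to the threshold, at 9.80 points ± 2.15 in its UTR in CTR KD cells (q 8.35e-05). This window was not listed for YAP KD differentiation, and was at 4.48 points at T0 and -4.82 at T4. Sfrp2 also had a window 1.74 kb upstream that changed by -3.73 points in CTR KD and -3.18 in YAP KD cells. All 7 windows of Sfrp1 lay within 1 kb of its TSS, and their CTR KD range was -0.732 to 0.493 points.

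The R-spondin module sets how many Frizzled receptors stay at the surface: R-spondins and Lgr receptors clear the ubiquitin ligases Rnf43 and Znrf3, which remove Frizzleds. Rnf43 held the one DMR of any member within 1 kb of a TSS. Its window, chr11:87476501-87476750, was centred 37 bases after the TSS in the UTR and held 10 CpGs. It changed by -12.8 points ± 2.37 in CTR KD (q 1.54e-06) and by -11.9 ± 2.55 in YAP KD cells (q 4.10e-05). Knockdown differences were -0.133 at T0 and 0.712 at T4, and the changes differed by 0.845 points with a 95% interval of -5.96 to 7.65.

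Rspo3, an R-spondin ligand, had 3 windows assigned across 163 kb of intergenic sequence. They changed by -5.98 to -6.98 points in CTR KD and by -7.60 to -8.13 in YAP KD cells, all past q. Their 31-mers occurred a median of 4 times in the genome, and the assignment to Rspo3 rests on distance alone. The Lgr5 and Znrf3 windows in CTR KD cells were between -0.125 and 0.522 points.

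The cytoplasmic core held no DMR. Across Dvl, Axin, Apc, Gsk3 and Ctnnb1 genes, 34 windows at 10 genes spanned -1.22 to 0.969 points over all 4 comparisons. Within 1 kb of a TSS, where most of these windows lay, 0.929% of all windows were DMRs in CTR KD and 1.20% in YAP KD differentiation. The single value past q alone was at the Axin1 promoter in YAP KD cells, at -0.844 points (q 0.0282). Nkd1, which encodes an inhibitor of Dishevelled, had 2 overlapping intergenic windows about 70 kb upstream that changed by -9.38 points ± 1.67 (q 5.45e-07) and -8.89 ± 1.67 (q 2.52e-06) in CTR KD cells. Neither was listed for YAP KD differentiation.

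Among the nuclear effectors, windows of Tcf7l2 and Tcf7l1 gained methylation and those of Tcf7 did not pass the test. The TCF genes encode the DNA-binding partners of β-catenin, and their median difference was 1.10 points over 17 windows in CTR KD cells and 0.18 over 16 windows in YAP KD cells. With q alone 5 of the 17 gained methylation and 0 lost it in CTR KD cells. They were an overlapping pair at Tcf7l2, the Tcf7l2 intron window and an overlapping pair at Tcf7l1. In YAP KD cells 2 of 16 gained methylation, the overlapping pair at Tcf7l2. Over all windows 2203 of 46579 and 1462 of 42770 gained methylation with q alone.

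Tcf7l2 held all gains past 10 points in differentiation. The upstream region, chr19:55804376-55804750, lay 11.8 to 11.7 kb before the TSS. Its first window gained 15.8 points ± 1.79 in CTR KD (q 1.06e-16) and 12.0 ± 1.86 in YAP KD cells (q 4.62e-09). Its second window gained 18.1 ± 2.31 and 10.7 ± 2.39 points (q 3.18e-13 and 0.000103). The gain was called in both knockdowns, and the smaller value in YAP KD cells differed by -7.39 points with an unadjusted p of 0.0263 and an adjusted p of 0.348.

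The intronic window of Tcf7l2, 26.5 kb after the TSS, gained 11.9 points ± 2.51 in CTR KD cells (q 3.43e-05). In YAP KD cells it was at -0.967 ± 2.50 (q 0.703). YAP KD against CTR KD was at -0.0468 points at T0 and at -13.0 ± 2.65 at T4 (q 0.000463). The gain seen in CTR KD cells was therefore not seen in YAP KD cells, which ended lower. The CTR KD gain and the T4 difference share the same CTR KD T4 samples, so they are not independent of each other. Both windows at the Tcf7l2 promoter, at 43 and 168 bases after the TSS, were at 0.324 and 0.275 points in CTR KD cells and at 0.212 and 0.145 in YAP KD cells.

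Tcf7l1, the TCF that mainly represses in ESCs, showed smaller gains in 2 overlapping windows 6.38 and 6.50 kb upstream. They gained 4.85 ± 0.899 and 5.94 ± 1.12 points in CTR KD cells (q 2.83e-06 for the second) and were at 1.02 and 1.02 points in YAP KD cells. At T4 the second was at -4.83 points (q 0.0152), the other member window past q alone at that time. The difference of its changes was -4.93 points ± 1.45, with an adjusted p of 0.0509. Tcf7 windows ranged from 0.897 to 2.97 points in CTR KD cells, with 0 of 5 past q.

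**Figure D3:**
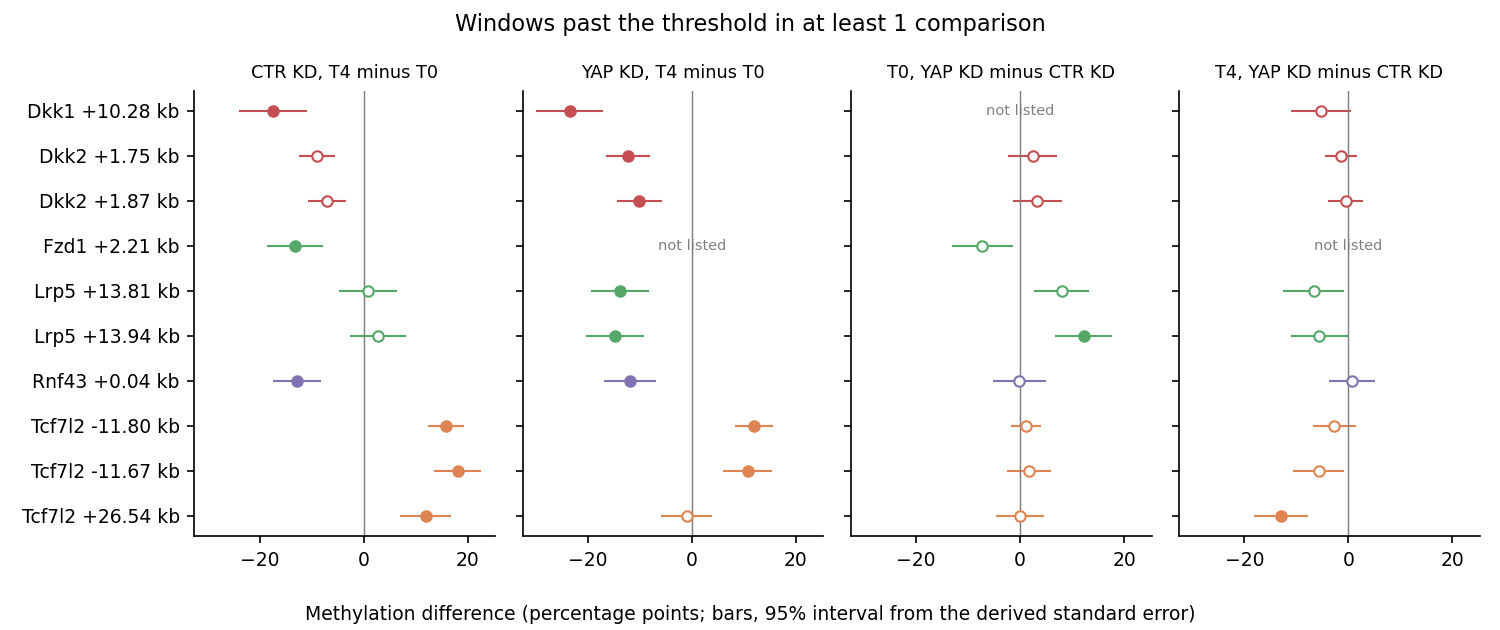
Methylation difference in percentage points (x axis) in the 4 comparisons (panels) for the 10 DMR windows, named by gene and distance from the TSS (y axis); filled points are DMRs in that panel, open points are not, and bars are 95% intervals from the derived SE. Rnf43, Dkk1 and the upstream Tcf7l2 windows are filled in both differentiation panels. Both Lrp5 windows are filled under YAP KD, and only the one 13.9 kb from the TSS also at T0 (12.2 points). The Tcf7l2 intron is filled only under CTR KD and at T4 (-13.0 points).

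The direct comparisons set YAP KD against CTR KD cells at each time, where YAP KD at T4 names the earlier transfection. At T0 1 of 272 member windows was a DMR, the Lrp5 window, where 0.0867% of all windows were. The members ranged from -7.24 to 12.2 points with a median of 0.0572. At T4 1 of 251 was a DMR, the Tcf7l2 intron, where 0.320% of all windows were. The range there was -13.0 to 6.39 points and the median -0.255. No ligand, antagonist, cytoplasmic or R-spondin window passed at either time. With q alone 0.368% of the members passed at T0 and 0.797% at T4, against 0.389% and 1.33% of all windows. At an unadjusted methylKit p of 0.05, 24 member windows passed at T0 and 32 at T4. The share of all windows at that p was not counted, so these 2 numbers have no background beside them.

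Whether the 2 knockdowns changed differently during differentiation was tested window by window. The CTR KD change was subtracted from the YAP KD change, divided by the combined derived SE in a z test, and adjusted over all windows in both tables. Of 218 member windows 3 passed, against 1.28% of all windows, and all were lower in YAP KD cells. They were both Lrp5 windows, at -17.5 points ± 3.96 (adjusted p 0.00282) and -14.6 ± 4.03 (adjusted p 0.0302), and the Tcf7l2 intron, at -12.9 ± 3.54 (adjusted p 0.0283). The 3 windows no longer passed when the SEs were doubled, and neither did any other window in the table. At an unadjusted p of 0.05 24 member windows passed, or 11.0% against 11.3% of all windows, and 20 of the 24 were lower in YAP KD cells, as were 3141 of the 4343 over all windows.

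Member changes in the knockdowns resembled each other. Over the 218 windows at 52 genes listed in both tables, Pearson's r was 0.718 and Spearman's rho 0.523, and 65.1% had the same sign. These are descriptions, since overlapping windows share reads. Over all 38597 such windows the values were 0.799, 0.488 and 62.1%. Of the 9 member windows that were DMRs in either knockdown, 2 were lost in both, 2 were gained in both, 4 were lost in YAP KD only and 1 was gained in CTR KD only. Of the 1844 such windows in the whole tables, 649 were lost in both, 137 were gained in both, 590 were lost in YAP KD only and 235 were gained in CTR KD only. Among those 4 the Lrp5 pair passed the test of the difference and the Dkk2 pair did not.

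**Figure D4:**
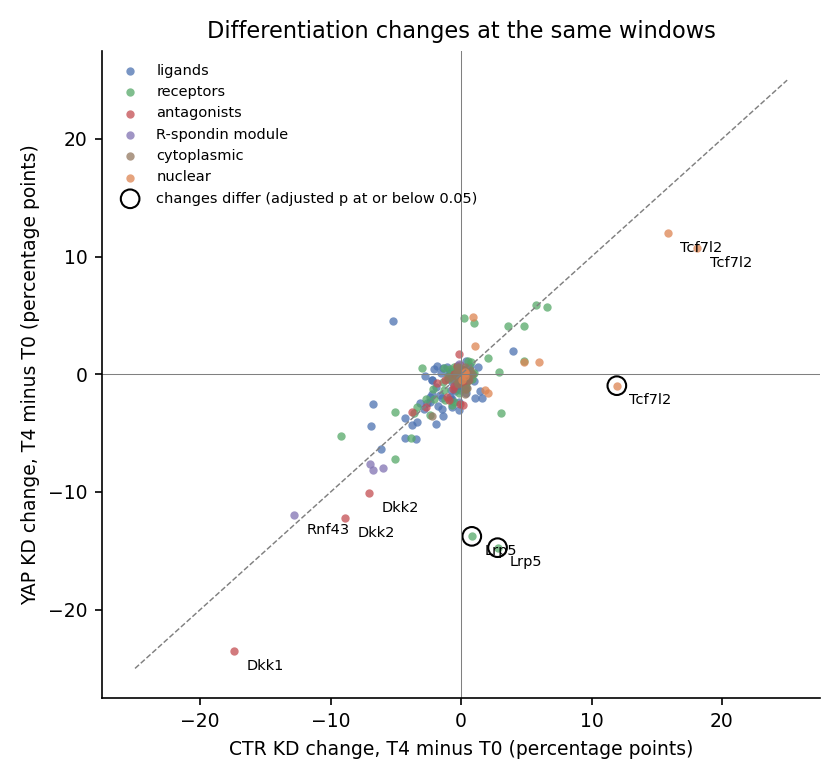
Change from T0 to T4 in YAP KD (y axis) against CTR KD (x axis), both in percentage points, for the 218 member windows listed in both tables, coloured by role; the dashed line marks equal change and rings mark the 3 windows past the z test. Most points lie close to 0, and Rnf43 lies near the line. The Dkk1, Dkk2 and upstream Tcf7l2 windows lie below it by changes that differ by -3.03 to -7.39 points and do not pass the z test. The ringed Lrp5 and Tcf7l2 windows lie further below it, by changes that differ by -12.9 to -17.5 points.

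The DMRs lay mostly away from promoters. Of the members 54.9% lay within 1 kb of a TSS, against 69.0% of all windows, and 34.9% lay in coding exons, against 20.01%. Within 1 kb, 0.671% of the members were DMRs in CTR KD differentiation (0.929% of all windows) and 0.730% in YAP KD differentiation (1.20%). Apart from Rnf43, the windows within 1 kb, 177 at 51 genes, spanned -7.24 to 4.90 points over both knockdowns. Between 1 and 10 kb the shares were 1.20% (6.96% of all windows) in CTR KD and 2.78% (7.39%) in YAP KD cells. Between 10 and 100 kb they were 10.5% (9.78%) and 16.7% (12.6%).

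CpG content differed too. The 10 DMR windows held 10 to 14 CpGs and 45.2% to 57.6% G or C, while the members' medians were 17 CpGs and 61.2%. With more than 15 CpGs, 0 of 152 member windows in CTR KD and 0 of 137 in YAP KD differentiation were DMRs, where 0.932% and 1.21% of all such windows were. With up to 15 CpGs the shares were 4.96% and 7.62%, against 5.41% and 6.40% of all windows.

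The windows were also searched on both strands for the TCF/LEF core CTTTGA (reverse complement TCAAAG) and the TEAD core GGAATG (reverse complement CATTCC), letters that do not overlap each other. The TCF/LEF core occurred in 10.6% of all windows, 12.0% of the members and 1 of the 10 DMR windows, the Lrp5 window chr19:3672626-3672875. The TEAD core occurred in 9.99% of all windows, 7.41% of the members and 1 of the 10, the upstream Tcf7l2 window printed above. These are matches of letters only.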

How the data were processed

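Genomic DNA of 8 samples (2 per group) was captured (SureSelectXT Methyl-Seq) and bisulphite sequenced. Trim Galore, Bismark, Bowtie2, methylKit and mm9 are named in the submitters' processing notes. The authors left out positions under 6 reads and compared groups over 250 bp windows starting every 125 bp. The deposited tables hold a p-value and a q-value per window, and a methylation difference in percentage points, all from the authors' own comparisons. They were used because the tables hold no other measurement: no value per sample, no level and no depth, which is therefore unknown.

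Windows were assigned to the nearest TSS of GENCODE M1 protein-coding, lincRNA and processed transcripts on NCBIM37. The signs of the 4 comparisons relative to each other were checked by closure. Over 37980 windows in all 4, the knockdown difference at T4 minus that at T0 matched the YAP KD minus CTR KD change (r 0.989, 93.4% within 0.5 points). Closure would also hold with every sign reversed, so it does not fix the direction by itself. In the direction used here losses outnumbered gains in both differentiation comparisons, and the paper also reports more losses than gains in both. A derived SE is the absolute difference over the normal quantile of the p-value, which covers only the error in that p-value. The z test used Benjamini-Hochberg adjustment and was tested on simulated data. Repeated sequence was judged by counting 31-mers in the genome.

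The genes named were those with a DMR or past the z test, and the largest change of each role among the others. Further members were named to describe a role. Members, lists and tests were chosen with earlier results of these data known. Alternatives were q at or below 0.01, no minimum difference, over 20 points, merged windows, within 10 kb, protein-coding TSSs, single-copy windows, gene bodies, doubled SEs, unadjusted p-values and the knockdown tables. Python 3.11.15, pandas 2.3.3, NumPy 2.4.6, SciPy 1.17.1 and pysam 0.24.0 were used.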

Additional observations from a re-analysis of the deposited data

Results flagged for a closer look

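The test of the difference between the knockdowns set apart 3 windows, whose changes from T0 to T4 differed between YAP KD and CTR KD cells. Both overlapping Lrp5 windows had lower changes in YAP KD cells, by -17.5 points at chr19:3672501-3672750 and by -14.6 points at chr19:3672626-3672875. They share reads, so they are one observation rather than a pair. The Tcf7l2 intron window had a change lower by -12.9 points in YAP KD cells. The knockdowns stood apart at T0 at Lrp5 (12.2 points) and not at the Tcf7l2 intron (-0.0468 points), where they stood apart at T4 (-13.0 points). These T0 and T4 values come from the same samples as the test, so they are not independent of it. With 2 samples a group and no value per sample, the part of single libraries in these differences was not tested.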

How the results depend on the processing

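Depth and the spread between replicates are unknown, and the derived errors carry only what the authors' p-values carry. No paired analysis was possible because the tables hold no value per sample, and leaving out a replicate was not run for the same reason. With no minimum difference the member windows numbered 14 gains and 33 losses in CTR KD, 8 gains and 37 losses in YAP KD differentiation and 2 lower windows at T4. Over 20 points these became 0, 0, 0, 1 (Dkk1) and 0, and 0 at T0. Within 10 kb of a TSS there were 0 gains in CTR KD, 0 gains and 3 losses in YAP KD cells, and 0 windows at T0 and at T4. With q at or below 0.01 the Lrp5 window at T0 was lost (0 left). Merging left 1 gained region in YAP KD cells. Counting windows inside member gene bodies, an alternative chosen after seeing the data, left 1 gain in CTR KD and 0 in YAP KD cells, since the upstream Tcf7l2 region lies outside the gene. Assigning windows to protein-coding TSSs alone gave 4 gains and 4 losses in CTR KD and 3 gains and 9 losses in YAP KD cells. Without repeated sequence, which removes Dkk1, losses were 2 in CTR KD and 5 in YAP KD cells. For the difference of changes, doubled SEs left 0 windows and no adjustment gave 24. The knockdown tables gave 3, but they hold nearly the same difference from the same samples, so this is no separate check.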

Other observations

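Other components and direct targets of the Wnt pathway, a list of 60 genes of which 44 had windows, held 278 windows. In CTR KD differentiation 4 of these gained and 4 lost methylation among 242, and in YAP KD differentiation 1 gained and 8 lost it among 230. These were 3.31% and 3.91% of the windows listed, beside 3.17% and 3.85% of all windows. At T4 1 was higher and 4 were lower in YAP KD cells, or 2.26% beside 0.320% of all windows, a share that rests on overlapping windows in part. At T0 0 of 252 were DMRs.

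Csnk1g2, which encodes a casein kinase 1 of the type that phosphorylates Lrp6, gained 19.1 points ± 2.89 in an intron in CTR KD cells and 6.96 ± 2.57 in YAP KD cells, a difference that did not pass the z test (adjusted p 0.0864). Its overlapping coding window passed the z test, with a change lower by -11.1 points in YAP KD cells (adjusted p 0.00476). Myc, a proto-oncogene and Wnt target, gained 10.9 ± 1.52 and 10.8 ± 1.51 points in a coding exon in CTR KD and YAP KD cells, so the gain was called in both knockdowns.

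Prickle1, a planar cell polarity component, had a coding exon window at 0.269 points in CTR KD cells that lost methylation in YAP KD cells, at -20.1 ± 3.43, and the changes differed (adjusted p 0.00779). Gpc6, a glypican, was at -4.03 points in CTR KD and -16.7 in YAP KD cells in an intron (adjusted p 0.0247). Tle4, a Groucho-type corepressor of TCF factors, went the other way at a distal window, at -13.9 points in CTR KD and -1.59 in YAP KD cells (adjusted p 0.0151). Tle3, a corepressor of the same family, lost methylation in both, at -20.01 points in CTR KD and -21.2 in YAP KD cells, at a window 100 kb from its TSS.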
